A study of Mus musculus with 3 samples.

Results

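Protein prenylation attaches an isoprenoid lipid to a cysteine near the end of a protein so that the protein can sit in a membrane. Farnesyl pyrophosphate, made by Fdps, is used directly by farnesyltransferase or is lengthened by Ggps1 to geranylgeranyl pyrophosphate. That is used by other transferases, among them GGTase I and Rab GGTase. Farnesyltransferase and GGTase I share the alpha subunit Fnta and differ in their beta subunits, Fntb and Pggt1b. Rab GGTase is built from Rabggta and Rabggtb and modifies the Rab proteins of vesicle traffic. Rce1 then cuts off the last residues of proteins that end in a CaaX motif, and Icmt methylates the exposed cysteine. In neutrophils and their precursors, prenylated small GTPases such as Rac and Rab proteins act in migration, oxidant production and granule release.

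The 8 enzymes described here (Ggps1, Fnta, Fntb, Pggt1b, Rabggta, Rabggtb, Rce1 and Icmt) were chosen by name for using the product of Fdps for prenylation or for finishing prenylated proteins, out of 27998 genes listed in the files, and all 8 were found. They were measured in CD133+ cells sorted from the bone marrow of C57BL/6 mice, by droplet single-cell RNA sequencing of transcript 3′ ends. There were 3 libraries, labelled control (3 months), young (3 months) and old (27 months). The design text of the study gives 18.5 months for the old mice and names another tissue. By its number of cells, the control library is the one that was described on its own, from C57BL/6N mice, apart from the comparison of young with old. Marrow cells of 3 mice were combined for sequencing, so each group was 1 library. Age, mice and library cannot be told apart, and no test between groups was possible.

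After trimming, 9780 control, 7378 young and 9681 old cells remained, with medians of 9560.5, 10174.5 and 12690 unique molecular identifiers (UMIs, counted transcript molecules) per cell. The cells carried neutrophil markers. Summed over 9 genes of maturing neutrophils, these took 250985 to 264150 of every 1000000 UMIs (CPM), and 6 promyelocyte markers took 10543 to 14411. The sort was described as endothelial-like. Of 6 endothelial markers, Cdh5, Kdr, Tek and Emcn had at most 37 UMIs each in any library, Pecam1 had 150, 276 and 357 UMIs and Egfl7 had 572, 520 and 707 in control, young and old. Prom1, the gene for CD133, was at 43.8 to 52.6 CPM. Libraries shared 120 to 161 barcode sequences in each pair. Cells were placed in 5 bands by their Mpo UMIs per 10000 UMIs (under 1, 1 to under 5, 5 to under 20, 20 to under 60, and 60 and more). Mpo encodes myeloperoxidase, an early granule protein of promyelocytes, and its transcript is lost as neutrophils mature. Summed promyelocyte markers were between 47847 and 51960 CPM in the highest band and between 1831 and 2768 in the lowest, and markers of maturing neutrophils ran the other way. The promyelocyte sum includes Mpo itself, so that part of the difference was fixed by the bands. Mpo was at 8141 to 10194 CPM in the highest band and at 36.6 to 49.2 in the lowest. Groups of cells with at least 3 markers of another blood lineage were set aside from the bands, and the young library held 823 such cells, against 130 in control and 106 in old. Among these, the group with NK and T markers held Mpo at 672 CPM and that with B progenitor markers at 1009 CPM. In the bands, Mpo was at 280 to 307 CPM from 1 to under 5 and at 850 to 965 CPM from 5 to under 20. Whether Mpo UMIs in the lower bands came from the cells themselves was not tested. A further group, of 1196 young, 11 control and 3 old cells, had haemoglobin genes together with Mmp8 and Mmp9 of maturing neutrophils among its leading genes and stayed in the bands. Bands of the same Mpo level did not hold the same groups of cells in the 3 libraries. Of 33 groups found by joint clustering, 16 drew at least 90% of their cells from 1 library, and such groups held 34.4% of control, 82.5% of young and 49.4% of old cells. In the highest band they held 83.3%, 85.5% and 93.5% of cells. Differences between libraries within a band were therefore measured largely across different groups of this clustering, and the part of these groups in the results was not tested. Whether they were different kinds of cells, or the same kind set apart by library, was not tested either.

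The level of an enzyme is its summed UMIs divided by all UMIs of the same cells and scaled to CPM, with exact 95% Poisson intervals. Differences are log2 ratios of CPM, with exact 95% conditional binomial intervals. Both kinds of interval cover counting error only, not the spread between mice or libraries. UMIs count 3′ ends and were not divided by transcript length, so levels are compared within a gene and not between genes. In summed cells, fewer cells that express a gene and less RNA per cell cannot be told apart.

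The promoters of 3 enzymes are shown because 2 of them, Ggps1 and Rabggta, were higher in the old library than in both 3-month libraries, and Rabggtb, the partner subunit of Rabggta, was lower. Sequences are from RefSeq on GRCm38.p6 (the mm10 build), 5′ to 3′ on the minus strand, and end at the base before the annotated start of the gene. They cover chr13:14063489-14063738 for Ggps1, chr14:55722264-55722513 for Rabggta and chr3:153913010-153913216 for Rabggtb. Capitals mark a CCAAT box (CCAAT on either strand) or a GC box (GGGCGG on either strand).
Ggps1: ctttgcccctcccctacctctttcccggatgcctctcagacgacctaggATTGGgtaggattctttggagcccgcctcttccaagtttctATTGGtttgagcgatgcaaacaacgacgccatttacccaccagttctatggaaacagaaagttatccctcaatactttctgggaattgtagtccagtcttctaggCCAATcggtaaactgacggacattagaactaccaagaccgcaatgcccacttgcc
Rabggta: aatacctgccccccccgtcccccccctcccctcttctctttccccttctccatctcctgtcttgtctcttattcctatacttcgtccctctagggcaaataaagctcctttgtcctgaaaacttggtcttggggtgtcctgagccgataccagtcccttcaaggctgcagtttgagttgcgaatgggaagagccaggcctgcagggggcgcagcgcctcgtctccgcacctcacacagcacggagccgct
Rabggtb: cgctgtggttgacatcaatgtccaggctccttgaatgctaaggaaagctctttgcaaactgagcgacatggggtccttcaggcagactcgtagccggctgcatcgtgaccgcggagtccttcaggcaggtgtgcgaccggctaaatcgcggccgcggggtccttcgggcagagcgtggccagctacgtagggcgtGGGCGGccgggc

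Ggps1 held 3 CCAAT boxes in this window, 2 of them on the opposite strand, Rabggtb held 1 GC box, and Rabggta held neither. Windows of other annotated starts differed. Rabggta held 4 GC boxes in chr14:55721924-55722173 and 0 in chr14:55722203-55722452. The Rabggtb window shown has 207 bases, and its full 250 bases held 2 GC boxes. Another Rabggtb window, chr3:153910968-153911217, held 0 GC boxes and 1 CCAAT box. Of 32851 RefSeq promoters cut to the 250 bases before the start, 33.8% held a CCAAT box, 32.7% a GC box, 6.02% an E box (CACGTG) and 1.05% a sterol response element written as TCACNCCAC. The last is the kind of element that sterol-sensing transcription factors bind in genes of the mevalonate pathway. Promoters were found for 6 of the 8 enzymes, 10 windows in all, and none held TCACNCCAC. Fnta and Pggt1b had no entry in the table. These matches describe letters in a window and are not binding sites.

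In the mm10 annotation (GENCODE M21), Ggps1 lies at chr13:14050659-14063488, Fnta at chr8:25998722-26015650, Rabggta at chr14:55715416-55722263, Rabggtb at chr3:153907287-153913009 and Rce1 at chr19:4622591-4625641, all on the minus strand. Fntb lies at chr12:76765589-76921412 and Icmt at chr4:152297227-152307121 on the plus strand. Pggt1b is on the minus strand of chromosome 18. Fntb overlaps Churc1 on its own strand, so reads in shared bases could have been lost or assigned to either gene. Rabggtb hosts 3 small nucleolar RNA genes in its span, which were not features of the files.

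The geranylgeranyl pyrophosphate synthase Ggps1 was at 5.29 CPM in control, 5.30 in young and 7.43 in old, from 508, 396 and 888 UMIs. The intervals of control (4.84 to 5.77) and young (4.79 to 5.85) overlapped, and that of old (6.95 to 7.93) lay above both. The log2 ratio of old over young was 0.49 (0.31 to 0.66) and that of old over control 0.49 (0.33 to 0.65), while control over young was 0.00 (-0.19 to 0.19). Ggps1 was higher in old than in young in all 5 Mpo bands, with log2 ratios from 0.60 to 0.93, and 4 of the 5 intervals lay above 0. Against control it was higher in all 5 bands as well, from 0.43 to 0.70, again with 4 intervals above 0. Control over young went from -0.10 to 0.50 in the bands and was higher in 4 of them. Its interval lay above 0 only in the highest band, at 0.50 (0.08 to 0.92). Over all kept cells, control over young changed sign in 6 of 8 alternatives, from -0.05 to 0.21.

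Fdps, which makes the substrate of Ggps1, was at 190.0 CPM in control, 109.6 in young and 366.8 in old. Its log2 ratio of old over young was 1.74 (1.71 to 1.78), so the difference in Fdps was larger than the difference in Ggps1. The UMIs of Fdps per UMI of Ggps1 were 35.9 (32.9 to 39.3) in control, 20.7 (18.7 to 22.9) in young and 49.4 (46.2 to 52.9) in old. In the lowest Mpo band this ratio was 27.05 (17.3 to 44.6) in control, 10.3 (6.59 to 17.0) in young and 41.8 (32.7 to 54.5) in old. There the interval of control overlapped that of old and not that of young. In the highest band it was 37.1 (31.0 to 44.9) in control, 33.3 (26.8 to 41.9) in young and 45.8 (38.2 to 55.4) in old, with overlapping intervals.

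**Figure D1:**
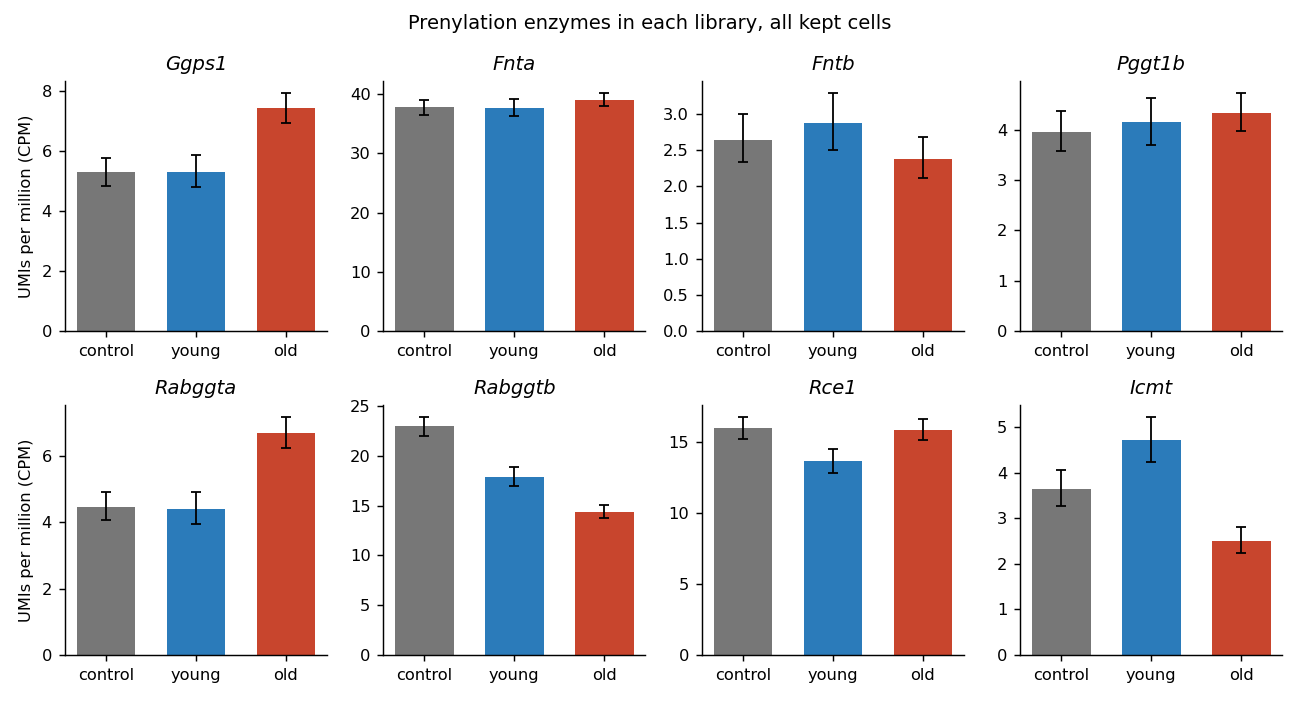
Bars give the level of each enzyme in CPM (linear axis from 0, scaled for each gene) over all kept cells of the control, young and old libraries, with exact 95% Poisson intervals for counting error. Ggps1 and Rabggta stood highest in old, Icmt and Rabggtb stood lowest in old, and Fnta lay between 37.7 and 39.0 in the 3 libraries.

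Fnta, the alpha subunit shared by farnesyltransferase and GGTase I, was at 37.7 CPM in control, 37.7 in young and 39.0 in old. Its log2 ratio of old over young was 0.05 (-0.02 to 0.12) and of control over young 0.00 (-0.07 to 0.07), which bounds the difference in these sums well under the limit of 1.5 times. Within bands, old was higher than young in all 5, from 0.06 to 0.29, and 3 intervals lay above 0.

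Fntb, the farnesyltransferase beta subunit, was at 2.65 CPM in control, 2.88 in young and 2.38 in old, from 254, 215 and 285 UMIs. Its log2 ratio of old over young was -0.27 (-0.53 to -0.01), and within the bands it went from -0.42 to 0.15 with every interval holding 0. With the 5 bands weighted equally the ratio was -0.02, and as UMIs per cell it was 0.01. Pggt1b, the beta subunit of GGTase I, was at 3.96, 4.15 and 4.34 CPM in control, young and old. Its log2 ratio of old over young was 0.06 (-0.14 to 0.27), with values in the bands from 0.13 to 1.35. The largest, in the lowest band, rested on 8 UMIs in young and 41 in old, with an interval of 0.24 to 2.65.

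Ratios of the CaaX transferase subunits had overlapping intervals in the 3 libraries, which does not show that they were equal. There were 14.3 (12.5 to 16.3) UMIs of Fnta per UMI of Fntb in control, 13.1 (11.4 to 15.1) in young and 16.4 (14.5 to 18.5) in old, with overlapping intervals. Per UMI of Pggt1b there were 9.53 (8.57 to 10.6), 9.07 (8.07 to 10.2) and 8.99 (8.21 to 9.86). UMIs of Fntb per UMI of Pggt1b were 0.668 (0.568 to 0.786) in control, 0.694 (0.580 to 0.828) in young and 0.549 (0.474 to 0.636) in old.

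The 2 subunits of Rab GGTase differed in opposite directions between the old library and each of the 3-month libraries, over all kept cells. Rabggta, the alpha subunit, was at 4.47 CPM in control, 4.40 in young and 6.71 in old, from 429, 329 and 802 UMIs. Control (4.06 to 4.91) and young (3.94 to 4.91) overlapped almost wholly, and old (6.25 to 7.19) lay above both. The log2 ratio was 0.61 (0.42 to 0.80) for old over young, 0.59 (0.41 to 0.76) for old over control and 0.02 (-0.19 to 0.23) for control over young. In the bands, old over young went from 0.41 to 0.79, higher in all 5, and 3 intervals lay above 0. Old over control went from 0.05 to 0.76, and 2 intervals lay above 0. The lowest of these, in the highest band, was 0.05 (-0.47 to 0.56).

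Rabggtb, the catalytic beta subunit, was at 23.0 CPM (22.0 to 24.0) in control, 17.9 (17.0 to 18.9) in young and 14.4 (13.7 to 15.1) in old, and none of the 3 intervals overlapped. The log2 ratio was -0.31 (-0.42 to -0.21) for old over young, -0.67 (-0.77 to -0.58) for old over control and 0.36 (0.26 to 0.46) for control over young. The 2 libraries labelled 3 months therefore differed by about as much as old and young did. Rabggtb was lower in old than in control in all 5 bands, from -0.83 to -0.46, with every interval below 0. Against young it was lower in the bands under 5 (-0.63 and -0.23) and close to 0 above them (0.02, 0.05 and 0.16). With the 5 bands weighted equally, old over young was -0.03, and as UMIs per cell it was also -0.03. The share of kept cells in the highest band, where Rabggtb was most abundant, was 10.9% in control, 14.8% in young and 6.87% in old.

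The ratio of the 2 subunits does not depend on how a library is scaled. There were 5.14 (4.63 to 5.72) UMIs of Rabggtb per UMI of Rabggta in control, 4.07 (3.60 to 4.60) in young and 2.15 (1.97 to 2.34) in old. It was lowest in old in every band. In the lowest band it was 2.42 (1.48 to 4.07) in control, 2.67 (1.59 to 4.64) in young and 1.06 (0.751 to 1.49) in old. In the band from 1 to under 5, with the most cells, it was 3.89 (3.29 to 4.63), 3.08 (2.50 to 3.82) and 1.53 (1.36 to 1.73). The libraries lay closer in the highest band, at 7.45 (5.85 to 9.59), 6.25 (4.74 to 8.38) and 5.26 (3.96 to 7.09), where all 3 intervals overlapped.

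**Figure D2:**
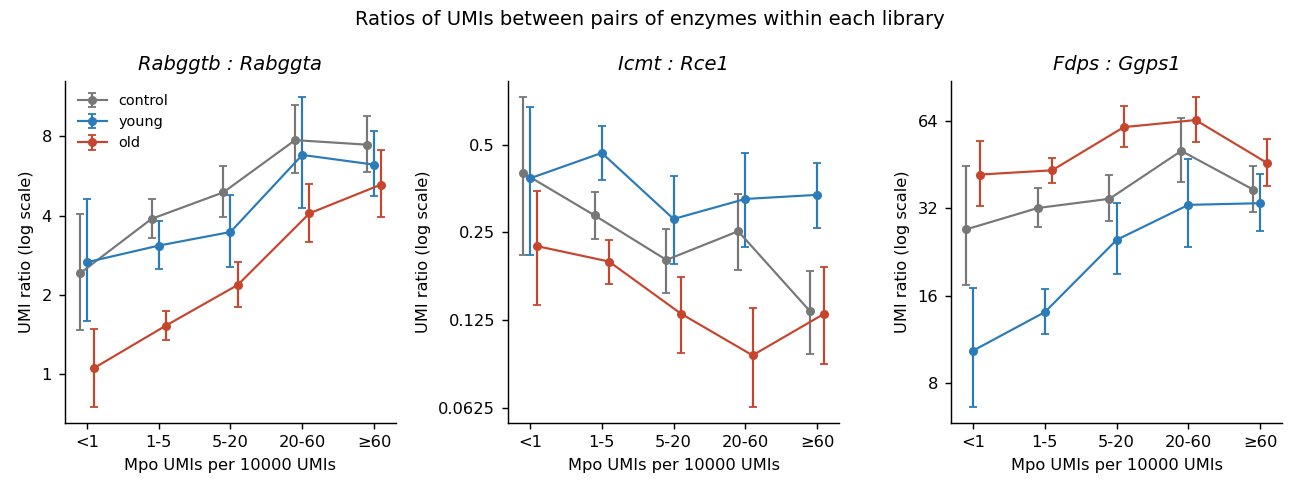
Each panel gives the ratio of the UMIs of 2 enzymes within a library (log scale) across the 5 bands of Mpo, with exact 95% intervals, for control (grey), young (blue) and old (red). Rabggtb per Rabggta was lowest in old in every band and went up toward high Mpo in all 3 libraries, Icmt per Rce1 was highest in young in 4 of the 5 bands, and Fdps per Ggps1 was highest in old in every band.

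Rce1, the protease of the CaaX pathway in the endoplasmic reticulum, was at 15.96 CPM (15.2 to 16.8) in control, 13.6 (12.8 to 14.5) in young and 15.9 (15.1 to 16.6) in old. Old and control overlapped and young was lower than both, with log2 ratios of 0.22 (0.11 to 0.33) for old over young and 0.23 (0.11 to 0.34) for control over young. In the bands Rce1 was higher in old than in young in all 5, from 0.19 to 0.52, and 3 intervals lay above 0. Against control it was higher in all 5 as well, from 0.03 to 0.37, with 0 intervals above 0. Icmt, the methyltransferase that acts after Rce1, was at 3.65 CPM (3.27 to 4.05) in control, 4.71 (4.23 to 5.23) in young and 2.51 (2.23 to 2.81) in old, from 350, 352 and 300 UMIs. No pair of these intervals overlapped. The log2 ratio was -0.91 (-1.14 to -0.68) for old over young, -0.54 (-0.77 to -0.31) for old over control and -0.37 (-0.59 to -0.15) for control over young.

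Icmt was lower in old than in young in all 5 bands, from -1.59 to -0.48, and 3 intervals lay below 0. The lowest value, in the band from 20 to under 60, rested on 41 UMIs in young and 30 in old. Control, also labelled 3 months, was lower than young in all 5 bands too, from -0.90 to -0.02, with 1 interval below 0. Old over control went from -1.29 to 0.02, with 2 intervals below 0. In the highest band young stood apart, at 6.30 CPM (5.01 to 7.82), while control was at 3.37 (2.45 to 4.52) and old at 3.42 (2.35 to 4.80). The UMIs of Icmt per UMI of Rce1 were 0.228 (0.203 to 0.257) in control, 0.346 (0.305 to 0.391) in young and 0.158 (0.140 to 0.179) in old.

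**Figure D3:**
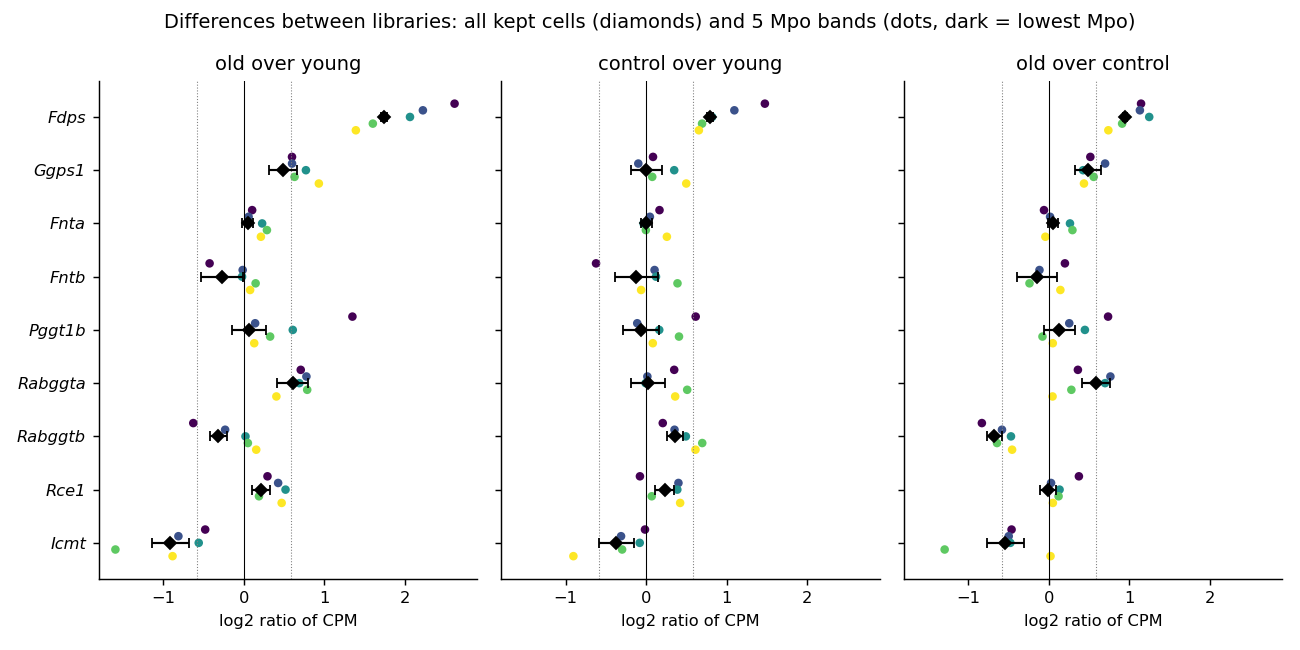
Log2 ratios of CPM are shown for Fdps and the 8 enzymes in 3 comparisons: black diamonds give all kept cells with exact 95% intervals for counting error, coloured dots give the 5 Mpo bands from lowest (dark) to highest (yellow), and dotted lines mark 1.5 times. Ggps1, Rabggta and Rce1 lay above 0 in old over young and old over control in every band, and Fnta and Pggt1b did so in old over young. Rabggtb lay below 0 in old over control in every band, and Icmt in old over young and in control over young. The share of all genes with the same direction in every band was not computed. Dots have no intervals, and Rabggta in old over control was only 0.05 in the highest band.

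A gene was counted as different between 2 libraries when it differed at least 1.5 times and had at least 10 CPM in either one. Fnta, Rabggtb and Rce1 reached that level. In old over young 0 of these 3 were higher and 0 lower, against 4.36% of 5761 genes higher and 14.7% lower. In control over young there were also 0 either way, against 1.59% of 5728 genes higher and 6.62% lower. In old over control Rabggtb alone was lower and none was higher, against 8.78% of 5470 genes lower and 5.37% higher. With a minimum of 2 CPM, chosen after the levels were seen so that all 8 enzymes were counted, Rabggta was higher in old over young at 1.52 times and Icmt was lower at 0.532 times, against 4.66% of 9203 genes higher and 23.3% lower. In old over control Rabggta was higher, at the limit itself with 1.5 times, and Rabggtb lower, against 6.97% of 8863 genes higher and 13.7% lower. In control over young 0 of 8 were counted, against 1.74% of 9143 genes higher and 11.1% lower.

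Over the 8 enzymes the median log2 ratio of old over young was 0.06, while the median over the 5761 genes was -0.15. Ggps1, Fntb, Pggt1b, Rabggta and Icmt were under the minimum of 10 CPM. All 8 were therefore ranked among the 9203 genes with at least 2 CPM, whose median was -0.23. Of these, 95.6% had a lower ratio than Rabggta, 94.2% a lower one than Ggps1 and 10.8% a lower one than Icmt. The shares were 87.0% for Rce1, 77.1% for Pggt1b and 76.0% for Fnta. Fntb and Rabggtb lay near the middle, with 46.2% and 42.5%. For Rabggtb the share was 95.1% of 9143 genes in control over young and 9.74% of 8863 in old over control. Summed erythroid and dendritic markers were highest in young. The erythroid markers were at 225.5 CPM in control, 946.1 in young and 46.7 in old, and the dendritic markers at 47.7, 457.8 and 25.2. Summed plasma cell markers were highest in control, at 240.0, 213.5 and 199.5 CPM. Without the cells set aside, old over young was 0.62 for Ggps1, 0.70 for Rabggta, -0.23 for Rabggtb and -0.90 for Icmt, but the erythroid markers were still at 545.5 CPM in young. Leaving out the haemoglobin-marked group as well, an alternative added after the groups were seen, brought them to 35.0 CPM in control, 147.2 in young and 9.42 in old. Old over young was then 0.63 for Ggps1, 0.82 for Rabggta, -0.32 for Rabggtb and -0.99 for Icmt, and control over young was 0.24 for Rabggta. In the bands, Ggps1 went from 0.43 to 0.93, Rabggta from 0.41 to 1.02 and Icmt from -1.59 to -0.54, so the directions of these 3 in old over young were the same in every band.

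The second comparison, within each library, set cells of the highest Mpo band against cells of the lowest. Rabggtb was at 43.3, 28.4 and 31.6 CPM in the highest band of control, young and old, and at 14.1, 12.3 and 7.95 in the lowest. Its mean log2 ratio was 1.61 ± 0.39 (SD, n = 3 libraries), and it was higher in all 3. Pggt1b was at 6.51, 6.15 and 6.73 CPM in the highest band and at 2.68, 1.75 and 4.46 in the lowest, a mean log2 ratio of 1.23 ± 0.61. Rce1 was at 25.1, 18.7 and 26.0 CPM in the highest band and at 9.75, 10.3 and 12.6 in the lowest, a mean of 1.09 ± 0.25.

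The other enzymes had smaller ratios between these bands. The means were 0.93 ± 0.31 for Fntb, 0.74 ± 0.22 for Ggps1 and 0.65 ± 0.06 for Fnta, each higher in the highest band in 3 of 3 libraries. Icmt was at 3.37, 6.30 and 3.42 CPM in the highest band of control, young and old and at 3.90, 3.94 and 2.83 in the lowest, with a mean of 0.25 ± 0.45 and no common direction. Rabggta was at 5.82, 4.53 and 6.01 CPM in the highest band and at 5.85, 4.60 and 7.51 in the lowest, a mean log2 ratio of -0.12 ± 0.18, and its interval held 0 in each library. With bands set on cells thinned to 3000 UMIs, its mean was 0.37. Between these bands a difference of Rabggta in CPM was not detectable at this depth, beside a median of 0.73 over 5736 genes. The ratio of Rabggtb to Rabggta differed with Rabggtb.

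Where a gene had 10 CPM or more in one of these bands in every library it was tested, and Rabggtb and Rce1 were at least 1.5 times higher in the highest band in all 3 libraries and 0 of the 3 enzymes tested were lower. Of 5736 genes, 48.2% were higher and 6.87% lower. With the minimum of 2 CPM, Pggt1b joined them, so 3 of 8 enzymes were higher and 0 lower, against 45.1% and 6.76% of 8885 genes. Pggt1b was close to the limit in old, at 1.51 times, and its lowest band held 11 UMIs in control and 8 in young. Fnta missed the count only through young, at 1.498 times. The median over the 8 enzymes was 0.83 and that over the 5736 genes 0.73, so being higher in the highest band was common to many genes. Only 3 of the 8 enzymes reached the minimum of 10 CPM that the 5736 genes passed, so the 2 medians are not over like genes. Levels are shares of all UMIs, and shares of other genes go up where abundant genes take less. The 9 markers of maturing neutrophils took 318146 to 351976 CPM in the lowest band and 65629 to 77046 in the highest. No other scaling was tried between bands, and the part of this in the ratios was not tested. An exact sign-flip test over 3 libraries cannot give a p below 0.25, and none was run. Cells of the highest band had medians of 12945, 12241 and 15072 UMIs in control, young and old, and those of the lowest band 7480, 8708 and 10874.5.

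**Figure D4:**
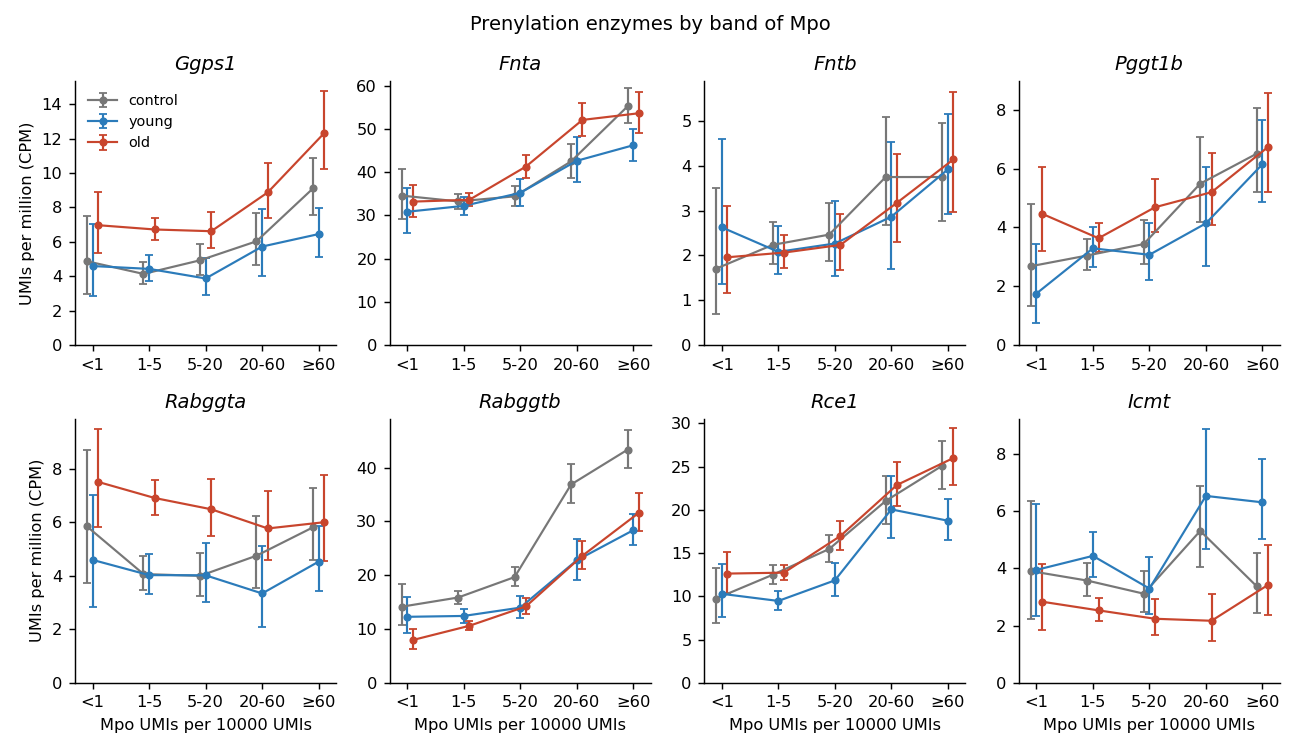
Each panel gives the CPM of an enzyme (linear axis from 0) in the 5 bands of Mpo UMIs per 10000 UMIs for control (grey), young (blue) and old (red), with exact 95% Poisson intervals. Rabggtb and Rce1 were higher in the highest band than in the lowest in all 3 libraries, and Rabggta was level or lower there.

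Shares of cells with a UMI were read after each cell was thinned to 3000 UMIs, which left out no kept cell. No cell type here is known to lack these enzymes, so no background share was available. Rabggtb was detected in 5.93% of control, 4.96% of young and 3.58% of old cells after thinning (18.7%, 16.1% and 15.6% before). Rabggta was detected in 1.39%, 1.37% and 2.02% of cells (4.25%, 4.31% and 7.91% before). Icmt was detected in 1.02%, 1.44% and 0.692% of cells (3.55%, 4.69% and 3.07% before). The order of the libraries in each gene was that of the CPM.

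In the young library the cells set aside could be read as groups. In 434 cells with dendritic and monocyte markers, Fnta was at 53.0 CPM (46.0 to 60.8), Rabggtb at 24.1 (19.4 to 29.5), Rce1 at 22.0 (17.6 to 27.2), Ggps1 at 9.57 (6.74 to 13.2) and Rabggta at 8.02 (5.45 to 11.4). Over all kept young cells the same genes were at 37.7, 17.9, 13.6, 5.30 and 4.40 CPM. Pggt1b was at 6.98 CPM (4.60 to 10.2) in these cells and 4.15 over all. Fntb was at 2.84 (1.42 to 5.09) and 2.88, and Icmt at 3.62 (1.98 to 6.07) and 4.71. The intervals of Fntb and Icmt held the level over all cells. The share of all genes that were higher in this group was not computed, so these values are not read as particular to the enzymes. Markers of maturing neutrophils took 77827 CPM in the young cells set aside, against 250985 over all kept young cells. In 91 cells with basophil, mast and erythroid markers Rabggtb was at 51.7 CPM (38.0 to 68.8), and in 130 cells with B progenitor markers at 31.6 (22.5 to 43.2). The other groups had under 100 cells and few UMIs per enzyme.

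Enzymes upstream of prenylation were taken from a list of 7 that make farnesyl pyrophosphate from acetyl units, of which 6 could be tested. In old over young, 5 of the 6 were higher by 1.5 times or more and 0 lower, against 4.36% and 14.7% of all genes. Their median log2 ratio was 1.03 beside -0.15 over all genes. Some of the 6 had 10 CPM only in old, so they passed the minimum through the library where they were high. Fdps and the isomerase Idi1, at 1.74 and 1.36, had the largest ratios, and Pmvk, which phosphorylates phosphomevalonate, was at 0.91. In control over young only 4 could be tested, and 2 were higher, against 1.59% of all genes, with a median of 0.43. In old over control 5 of 6 were higher, against 5.37% of all genes, with a median of 0.76. The counts and medians of the comparisons therefore do not rest on the same genes. The prenylation enzymes had medians of 0.06, 0.00 and 0.02 in the same comparisons. Those were over all 8 with no minimum, so the medians of the 2 sets are not over like genes.

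Other enzymes that draw on farnesyl or geranylgeranyl pyrophosphate, directly or (Coq2) through a longer chain built from it, had no common direction. Of 4 tested, Fdft1, the squalene synthase that starts sterol synthesis, was at 9.19, 7.98 and 15.5 CPM in control, young and old. Its log2 ratio of old over young was 0.96 (0.82 to 1.09), and it passed the minimum of 10 CPM only through old. Coq2, which joins a polyprenyl tail to the ubiquinone ring, was at 22.5, 21.1 and 12.5 CPM, a ratio of -0.76 (-0.86 to -0.66). Dhdds and Nus1, the 2 subunits that make dolichol, were at 0.05 and 0.02.

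Of 8 tested genes for escort, later processing and turnover of prenylated proteins, 0 were higher and 1 lower in old over young, with a median of 0.08. Zmpste24, a second CaaX protease, which also matures lamin A, was at 124, 104 and 117 CPM, a log2 ratio of 0.18, and Pde6d, a carrier of farnesylated proteins, was at 0.10. Rap1gds1 was at -0.07. Pcyox1, which breaks down prenylated cysteines, was at 17.3, 24.1 and 15.1 CPM, a ratio of -0.68 (-0.77 to -0.58), and it was also lower in control than in young, at -0.48.

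Among the substrates, 12 of 13 genes for farnesylated proteins could be tested, and 0 were higher and 2 lower in old over young, with a median of -0.26. The co-chaperone Dnaja1 was at 217.9, 254.3 and 138.7 CPM, a ratio of -0.87, and the phosphatase Ptp4a2 at -0.78. The related phosphatase Ptp4a1 was at 0.20. Of 12 tested genes for proteins modified by GGTase I, Rap1b alone was higher, at 0.68 (202.3, 184.1 and 294.6 CPM), and 0 were lower. Ralb was at 0.30, Rhoa at -0.16 and the G protein subunit Gng5 at -0.18, and the median was 0.06.

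Rab proteins are the substrates of the Rabggta and Rabggtb enzyme. Of 26 tested Rab genes, 1 was higher and 1 lower in old over young, with a median of 0.08. Rab24, known for a part in autophagy, was at 194.3, 112.9 and 232.6 CPM, with a ratio of 1.04 for old over young and 0.78 for control over young. Rab2a was at 0.32, and the early endosomal Rab5b and Rab21 were at -0.40 and -0.69. These lists held genes that differ widely in level and function, and the shares of all genes that were higher and lower in the same comparison were those given above.

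Across the 15 groups of library and band, pairs of enzymes were compared by Pearson's r of log2(CPM + 1), as a description. These points share libraries and depth, and low genes carry counting noise. Fnta and Rce1 had r = 0.93, Fntb and Rabggtb 0.89, and Fnta and Pggt1b 0.86. Rabggta and Rabggtb had r = -0.20, and Rabggta and Icmt -0.64. Of 4798 genes, those close to Fnta included Mrpl41 and Cfap20 (r = 0.982 for both), the closest to Rabggtb were 1810043H04Rik, Chchd1 and Eif4g2 (0.994, 0.994 and 0.993), and the closest to Rce1 were C1d, Mtx2 and Commd2 (0.979, 0.979 and 0.977).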

How the data were processed

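The 3 libraries were made from FACS-isolated CD133+ marrow cells with 10x Genomics 3′ chemistry (v2). Per the labels, the authors used STAR and Cell Ranger 2.1.0 with the mm10 build, and they deposited 1 matrix of UMI counts per gene and cell for each library, with no cell annotation. Deposited cells numbered 10869 (control), 8362 (young) and 10597 (old).

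Cells with under 200 genes or over 20% mitochondrial UMIs were removed. Cells outside the 5th to 95th percentile of UMIs were removed too, with percentiles set over young and old together and over control alone. This left 95980225 control, 74708327 young and 119588365 old UMIs. Doublets were not called or removed. Cells were clustered jointly (scanpy 1.11.5, leidenalg 0.10.2, resolution 2, 30 principal components, 15 neighbours, 2000 variable genes). A group with at least 3 markers of another lineage at 10 times their level in the other cells of the same library was set aside from the Mpo bands. The resolution was settled after the groups were seen.

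UMIs were summed per library and band. No model was fitted and no p-value was computed, since each group was 1 library. Intervals came from scipy 1.17.1, and ratios were given only for groups with at least 50 cells. The calls were tried on simulated counts for old over young, in which 100 genes were made higher and 100 lower by 2 times among 5367 genes. All 100 were called each way, and 0 of 5167 unchanged genes were called. Changes of 2 times lie past the limit of size, so this does not show how calls close to the limit would fare. The changed genes were drawn from levels above those of Rabggtb and Rce1 in young and old, so recovery at their levels was not checked. The 9203 genes with at least 2 CPM were not simulated, so calls at that minimum were not checked. Spread between mice or libraries could not be estimated and is not covered. Of 27998 gene identifiers, 27645 were in GENCODE M21.

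Named genes were the 8 enzymes, Fdps, Mpo, the 2 highest and 2 lowest old over young ratios of each pathway list among genes with at least 10 CPM, and for each of the 3 enzymes with the most UMIs the 3 genes closest in pattern. A few genes that this rule names are not reported here. The enzymes, lists, limits and bands were chosen with earlier results of these data known. The alternatives were other trimming, scaling, weights, bands, minimums and limits, leaving out a library, and thinning.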

Additional observations from a re-analysis of the deposited data

How the results depend on the processing

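Of the counts of enzymes past 1.5 times, old over control went from 1 to 0 as UMIs per cell and with the Mpo bands weighted equally. With a minimum of 5 CPM old over young went from 0 to 1 and old over control to 2. With the minimum of 2 CPM, which was added after the data were seen, both were 2. With the lower limit of size that was tried, control over young went from 0 to 1. The band count was 2 and became 3 with no trimming, with a minimum of 5 or 2 CPM and with the lower limit, and it was 2 to 3 when 1 library was left out (3 without young). Over all alternatives run, old over young kept its sign for Ggps1 (0.48 to 0.77), Rabggta (0.53 to 0.89), Rabggtb (-0.39 to -0.03) and Icmt (-0.99 to -0.62). Fntb changed sign as UMIs per cell. Scaling by UMIs per cell moved every gene by 0.29 in old over young and by 0.33 in old over control, and the median of ratios by 0.10 in old over young. Depth limits Ggps1, Fntb, Pggt1b, Rabggta and Icmt, which had as few as 7 UMIs in a band. No paired analysis was possible because the labels carry no replicate numbers and each group is 1 library.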
